A study of Mus musculus with 16 samples.

Results

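The genes of the proteasome were examined in the liver transcriptomes of mice exposed to cadmium (Cd), with or without dietary selenium (Se). The set comprised the protein-coding genes that the deposited table annotates to the KEGG proteasome pathway, which were 45 of its 57010 genes. Of these, 42 had a mean of at least 1 TPM (a transcript level scaled by length and library total) over the 16 libraries and were tested, and 3 (Psma8, Psmb11 and Ifng) did not reach that level. By role, the tested genes were 7 subunits of the alpha ring, 7 of the beta ring, 3 immunoproteasome subunits, 5 ATPases and 4 other subunits of the base, 9 subunits of the lid, 4 activator genes, 1 inhibitor and 2 assembly factors. Psmc2, a base ATPase, carries no KEGG annotation in the table and is not counted in the set.

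The proteasome is the large protease that degrades ubiquitin-tagged proteins in the cytosol and nucleus. Its core particle is a barrel of alpha rings, which gate the entry, and beta rings, which hold the cutting sites, and it is capped by the regulatory particle, whose base unfolds the substrate and whose lid removes ubiquitin. In cells under interferon the cutting subunits Psmb5, Psmb6 and Psmb7 are replaced by Psmb8, Psmb9 and Psmb10, and other caps (Psme1 with Psme2, Psme3, Psme4) can take the place of the regulatory particle. The transcription factor NRF1, encoded by Nfe2l1, is known to raise most proteasome genes together when proteasome activity falls short.

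All mice were wild-type adult C57BL/6J males, as the study's methods state, with 4 mice in each group. The Cd group received CdCl2 by intraperitoneal injection at 1.25 mg/kg on each of 7 days, the Se group a diet with selenomethionine (SeMet) at 2 ppm for 3 months, the Cd+Se group both, with the injections in the last days of the diet, and the control group neither. What the control and Se mice were injected with is not stated in the sources used here. The design asks whether Cd altered the liver transcriptome and whether Se altered the effect of Cd.

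The TPM of each library add up to 1 common total, so a value is a share of the sequenced transcripts, the depth of the libraries is unknown, and precision rests on the 4 mice. The libraries carried the hepatocyte markers Alb, Apoa1, Ttr and Cyp2e1 at a summed 37231 to 107918 TPM. In bulk tissue, fewer cells of a type and less RNA per cell cannot be told apart. Cd mouse 5 stood apart, with a library median of 2.68 on the log2(TPM + 1) scale against 2.90 to 3.36 in the other libraries. Over the tested genes as a whole, the median log2 change was -0.17 in Cd against control and 0.17 in Cd+Se against Cd, so that changes are also read against these shifts.

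The promoters below are those of Psma3 and Psma2, which rose most in Cd mice, of Psme4, which fell most, of the cutting subunits Psmb5 and Psmb6, which hold the motif that NRF1 binds, and of the base scaffold Psmd2, chosen after its values were seen. RefSeq promoter windows (GRCm38.p6) were matched by symbol for 38 of the 45 genes, in 40 windows that reach from 250 bases before to 50 bases after the transcription start. Each line gives the 150 bases before the RefSeq start, 5′ to 3′ on the strand of the gene. The GENCODE M21 annotation places the starts of Psme4 (30771726) and Psmb5 (54618022) inside these stretches. It places those of Psma3 and Psma2 within their last bases. In 30 of the 40 windows, the bases checked after the start stood in a GENCODE M21 transcript of the gene. Capitals mark matches on either strand to the core of the antioxidant response element, TGACNNNGC, or to the CCAAT box, CCAAT, which do not overlap each other here. Psma3 lies at chr12:70974473-70974622 (plus strand), Psma2 at chr13:14613092-14613241 (plus strand), Psmb5 at chr14:54617996-54618145 (minus strand), Psmb6 at chr11:70525207-70525356 (plus strand), Psmd2 at chr16:20651502-20651651 (plus strand) and Psme4 at chr11:30771625-30771774 (plus strand).
Psma3: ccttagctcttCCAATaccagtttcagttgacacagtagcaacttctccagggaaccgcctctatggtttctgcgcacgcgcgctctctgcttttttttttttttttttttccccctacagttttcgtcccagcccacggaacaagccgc
Psma2: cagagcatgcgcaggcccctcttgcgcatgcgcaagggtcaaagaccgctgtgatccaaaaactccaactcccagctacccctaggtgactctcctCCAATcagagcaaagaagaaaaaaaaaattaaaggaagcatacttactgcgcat
Psmb5: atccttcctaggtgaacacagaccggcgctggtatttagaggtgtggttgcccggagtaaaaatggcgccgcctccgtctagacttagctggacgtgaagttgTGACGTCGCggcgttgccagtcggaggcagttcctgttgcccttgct
Psmb6: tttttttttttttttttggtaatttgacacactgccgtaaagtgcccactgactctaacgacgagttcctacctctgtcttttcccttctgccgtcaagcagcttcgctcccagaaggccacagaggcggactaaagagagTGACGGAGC
Psmd2: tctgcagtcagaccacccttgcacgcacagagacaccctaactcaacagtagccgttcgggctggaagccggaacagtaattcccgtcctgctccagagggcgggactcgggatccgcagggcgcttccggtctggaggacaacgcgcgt
Psme4: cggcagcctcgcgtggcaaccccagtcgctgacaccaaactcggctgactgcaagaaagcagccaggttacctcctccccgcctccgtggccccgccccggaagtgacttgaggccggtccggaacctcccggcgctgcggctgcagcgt
Psmb5 and Psmb6, which rose in Cd mice, each hold 1 antioxidant response element core in this stretch. Psma3 and Psma2 each hold 1 CCAAT box, and no match lies in this stretch of Psmd2 and Psme4. The printed promoters were picked, so they do not compare genes that rose with genes that fell. The fall was larger for Psme3, whose promoter is not printed and holds 1 CCAAT box 14 bases before the start, than for Psmd2. Over the full windows, 8 of the 40 (20%) held the antioxidant response element core against 12.4% of the 32851 RefSeq windows, and 13 (32.5%) held the CCAAT box against 37.4%. Of the 8 windows of genes that rose in Cd mice, 3 held the antioxidant response element core (Psmb5, Psmb6 and Sem1), and of the 6 windows of genes that fell, 1 did (Psme4, across its start site). The CCAAT box stood in 4 of the 8 windows and in 1 of the 6. Of the 24 windows of tested genes without a call, 4 (16.7%) held the antioxidant response element core and 7 (29.2%) the CCAAT box. These are matches of letters only, in few windows, and their part in the changes was not tested.

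In the liver of Cd mice 7 of the 14 core particle genes rose, led by Psma3 and Psma2 of the alpha ring and Psmb3 of the beta ring, together with the small lid subunit Sem1 and the ubiquitin receptor Psmd4. The base genes Psmd1, Psmd2 and Psmc3, the lid genes Psmd8 and Psmd13 and the activators Psme3 and Psme4 fell. Of the 42 genes, 9 (21.4%) were higher in Cd than in control and 7 (16.7%) were lower by limma at an adjusted p under 0.05. Among all 11766 genes tested, 5.82% were higher and 24.9% were lower, so the share of proteasome genes that fell was below that of all genes. Only 2 of the falls passed once library medians were set equal, and 5 were lost without Cd mouse 5 or control mouse 27. The median log2 change of the proteasome genes was -0.04, above the -0.17 of all tested genes, and 19 of the 42 (45.2%) had an unadjusted p under 0.05, close to the 42.5% of all tested genes.

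**Figure D1:**
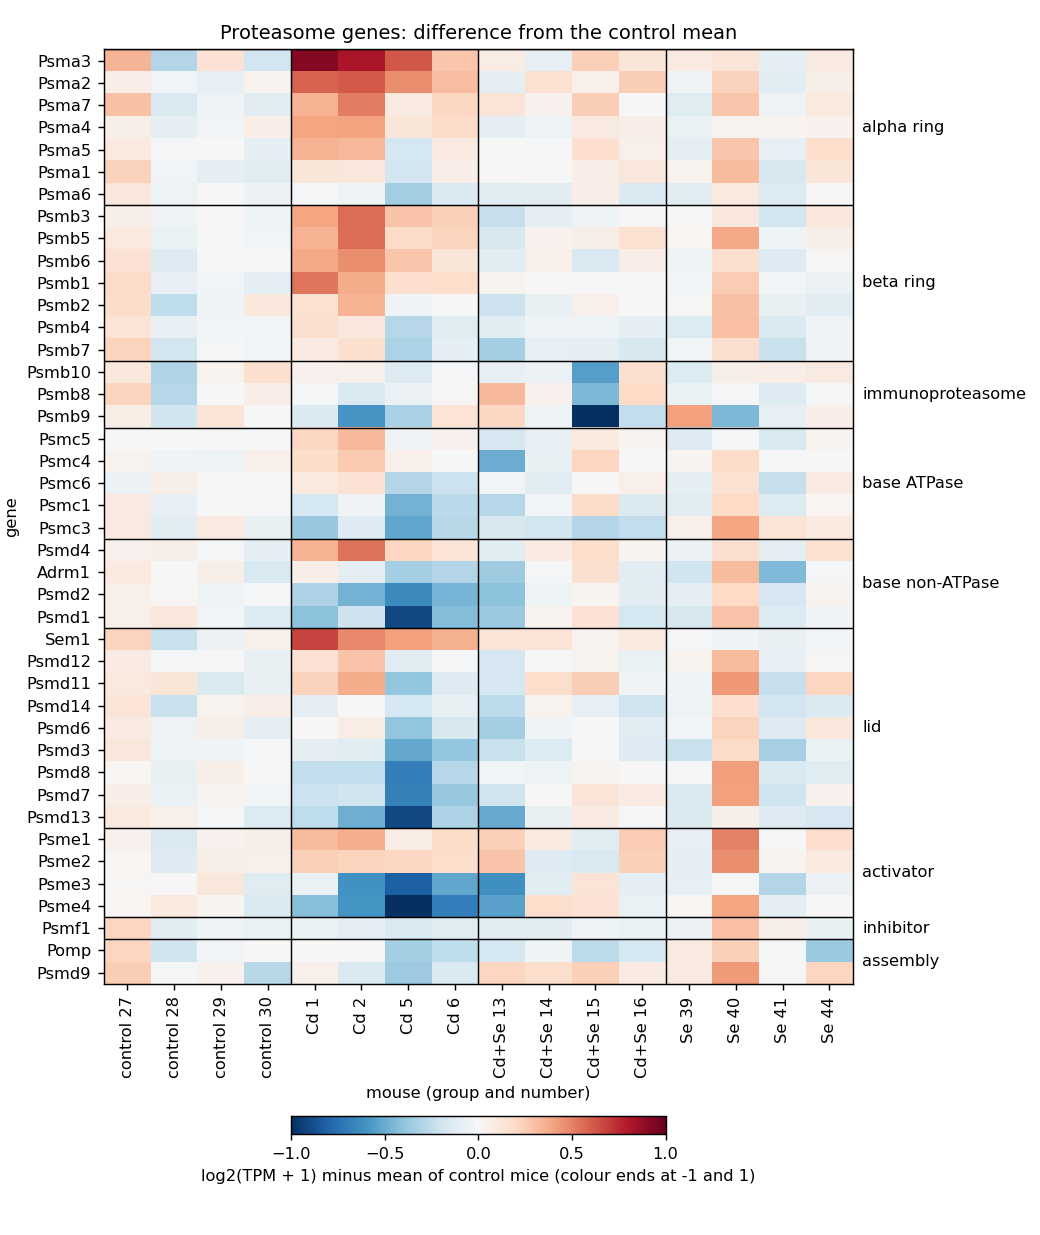
Heat map of the 42 tested proteasome genes (rows, by role) in the 16 mice (columns, by group); colour gives log2(TPM + 1) minus the mean of the 4 control mice, red for higher and blue for lower. The Cd columns hold red rows in the alpha and beta rings. The base, lid and activators hold blue rows and also red ones, such as Psmd4, Sem1, Psme1 and Psme2. The Cd+Se columns are paler on the whole, with mouse 13 blue in Psmc4, Psme3 and Psme4.

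Psma3, a subunit of the alpha ring (chromosome 12, 70974621 to 70996347 in GENCODE M21, GRCm38), showed the largest rise. Its level was 98.3, 63.1, 85.7 and 67.7 TPM in the control mice 27 to 30 and 147, 137, 120 and 94.1 TPM in Cd mice 1, 2, 5 and 6. The lowest Cd mouse lay just under the highest control mouse, and the others lay above all control mice. The log2 change was 0.66 (SE 0.15, adjusted p = 0.0049), a 1.58-fold difference on the scale of TPM + 1. Psma2, of the same ring (chromosome 13, 14613240 to 14674236), measured 25.7, 24.1, 23.1 and 25.1 TPM in control and 37.3, 38.0, 34.2 and 30.5 TPM in Cd mice. The groups did not overlap, and the log2 change was 0.49 (SE 0.11, adjusted p = 0.00351). Of the other alpha subunits, Psma4 rose by 0.28 (adjusted p = 0.0323). Psma7 (0.29, adjusted p = 0.0933), Psma5 (0.15), Psma1 (0.03) and Psma6 (-0.14) did not pass the test. The ratio of Psma2 to Psma1 within a library was 0.372 ± 0.032 (SD, n = 4) in control and 0.522 ± 0.0638 in Cd mice, and that of Psma3 to Psma6 was 0.705 ± 0.109 and 1.23 ± 0.201; these pairs were chosen after their values were seen.

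In the beta ring, 4 of the 7 genes rose and none fell, beside 5.82% and 24.9% of all tested genes. Psmb3, a structural subunit without a cutting site (chromosome 11, 97703399 to 97713500), measured 120, 112, 116 and 112 TPM in control and 151, 169, 140 and 135 TPM in Cd mice. Every Cd mouse lay above every control mouse, with a log2 change of 0.37 (SE 0.10, adjusted p = 0.0122). Psmb1, also structural, rose by 0.31 (adjusted p = 0.0386), while Psmb2 (0.12) and Psmb4 (-0.03) did not pass the test.

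The 3 cutting subunits of the standard core differed from each other. Psmb5, with the chymotrypsin-like site that bortezomib blocks (chromosome 14, 54614119 to 54618022), measured 82.8, 73.6, 77.0 and 75.8 TPM in control and 98.8, 114, 88.3 and 90.2 TPM in Cd mice, without overlap. Its log2 change was 0.33 (SE 0.12, adjusted p = 0.039). Psmb6, with the caspase-like site (chromosome 11, 70525367 to 70527858), measured 154, 127, 138 and 139 TPM in control and 182, 192, 169 and 151 TPM in Cd mice. Here 1 Cd mouse lay within the range of the control mice, and the log2 change was 0.31 (SE 0.11, adjusted p = 0.0341). Psmb7, with the trypsin-like site (chromosome 2, 38588036 to 38644087), measured 132, 99.5, 112 and 111 TPM in control and 120, 126, 90.3 and 106 TPM in Cd mice. The groups overlapped throughout, and its log2 change of -0.04 (adjusted p = 0.82, 95% interval of the fit -0.31 to 0.22) did not pass the test.

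**Figure D2:**
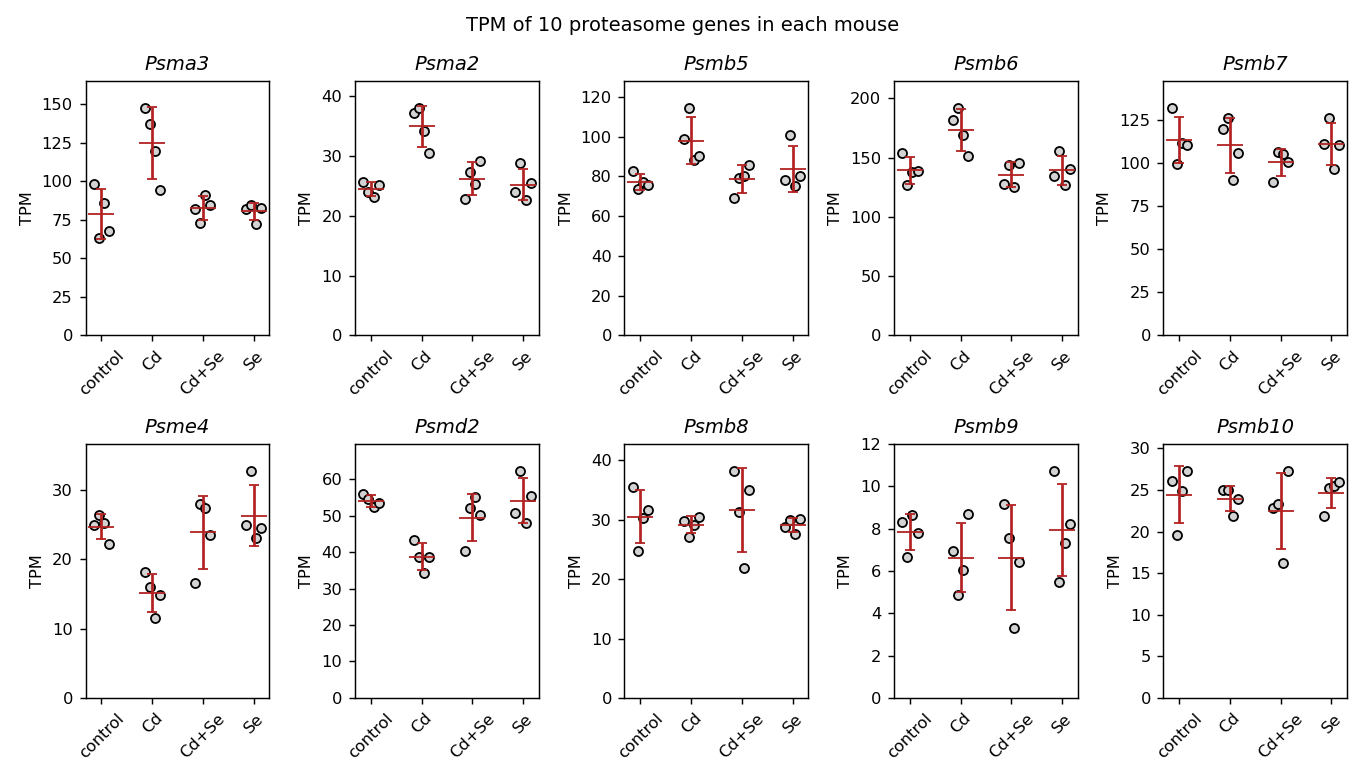
TPM of 10 proteasome genes (1 panel each) in each of the 16 mice by group; grey points are mice and red bars the mean and SD of 4 mice. Psma3, Psma2, Psmb5 and Psmb6 sit higher in Cd mice, Psme4 and Psmd2 lower, and Psmb7, Psmb8, Psmb9 and Psmb10 overlap between groups.

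None of the 3 immunoproteasome genes passed the test in Cd against control. Psmb8 measured 35.5, 24.7, 30.2 and 31.7 TPM in control and 29.8, 27.2, 29.1 and 30.4 TPM in Cd mice (log2 change -0.05, adjusted p = 0.802). Psmb9 had the lowest mean TPM of the tested genes, at 8.30, 6.67, 8.63 and 7.78 TPM in control and 6.96, 4.87, 6.03 and 8.69 TPM in Cd mice (log2 change -0.23, SE 0.23, adjusted p = 0.481). The values of both genes overlapped between the groups. Psmb10 likewise overlapped, at 26.1, 19.5, 24.9 and 27.2 TPM in control and 25.0, 25.0, 21.9 and 23.9 TPM in Cd mice (log2 change -0.02, adjusted p = 0.933). The signs of these small changes for Psmb8 and Psmb10 turned when the libraries were centred on their medians or quantile normalized. As a description, the ratio of Psmb8 to Psmb5 was 0.394 ± 0.0417 (SD, n = 4) in control, 0.302 ± 0.0453 in Cd, 0.406 ± 0.115 in Cd+Se and 0.352 ± 0.0366 in Se mice. The ratio of Psmb9 to Psmb6 was 0.0564 ± 0.00447, 0.0392 ± 0.0134, 0.0488 ± 0.0188 and 0.0578 ± 0.0182, and that of Psmb10 to Psmb7 was 0.215 ± 0.0233, 0.219 ± 0.0197, 0.225 ± 0.052 and 0.224 ± 0.0315, in the same order. The denominators Psmb5 and Psmb6 are themselves among the genes that rose in Cd mice.

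In the base of the regulatory particle, the scaffolds Psmd1 and Psmd2, which receive substrates and shuttle factors, both fell in Cd mice. Psmd1 (chromosome 1, 86064387 to 86139151) measured 37.1, 38.8, 35.2 and 32.4 TPM in control and 26.7, 30.9, 18.7 and 26.3 TPM in Cd mice. All Cd mice lay below all control mice, with mouse 5 the lowest, and the log2 change was -0.49 (SE 0.15, adjusted p = 0.0244). Psmd2 (chromosome 16, 20651652 to 20663414), described by mouse after its values were seen, measured 55.8, 54.4, 52.2 and 53.5 TPM in control and 43.3, 38.5, 34.4 and 38.8 TPM in Cd mice, again without overlap (log2 change -0.47, SE 0.11, adjusted p = 0.00604). The ubiquitin receptor Psmd4 went the other way, by 0.31 (adjusted p = 0.04), and Adrm1, another ubiquitin receptor, did not pass the test (-0.17). Of the 5 ATPases that unfold the substrate, Psmc3 fell by 0.32 on the log2 scale (adjusted p = 0.0313), and Psmc1, Psmc4, Psmc5 and Psmc6 did not pass, with log2 changes from -0.24 to 0.14.

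Among the 9 lid genes, 1 rose and 2 fell, beside 5.82% and 24.9% of all tested genes. Sem1, a small acidic protein that holds lid subunits together (chromosome 6, 6557294 to 6578663), measured 22.3, 16.1, 18.2 and 19.7 TPM in control and 30.8, 26.8, 25.5 and 24.6 TPM in Cd mice. The groups did not overlap, and the log2 change was 0.48 (SE 0.10, adjusted p = 0.00333), the smallest adjusted p of the set. Psmd13 (chromosome 7, 140881968 to 140898643) measured 46.0, 44.6, 42.5 and 38.9 TPM in control and 35.8, 30.2, 22.5 and 34.5 TPM in Cd mice, without overlap (log2 change -0.49, SE 0.15, adjusted p = 0.0203). Psmd8 fell by 0.37 (adjusted p = 0.0402). Psmd14, the deubiquitinase of the lid (chromosome 2, 61711694 to 61800376), measured 38.6, 29.99, 36.1 and 36.9 TPM in control and 32.8, 35.4, 31.2 and 33.4 TPM in Cd mice and did not pass the test (-0.09, adjusted p = 0.588). Psmd7 (-0.37, adjusted p = 0.0552), Psmd3 (-0.27), Psmd6 (-0.12), Psmd11 (0.02) and Psmd12 (0.07) did not pass either.

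The activators split in pairs. Psme4, which encodes the cap PA200 known from acetylated histone turnover (chromosome 11, 30771726 to 30880361), measured 24.9, 26.4, 25.1 and 22.1 TPM in control and 18.1, 15.9, 11.5 and 14.8 TPM in Cd mice. It showed the largest fall of the set, with a log2 change of -0.69 (SE 0.17, adjusted p = 0.00603), and no overlap. Psme3, the nuclear cap PA28 gamma (chromosome 11, 101316213 to 101323537), measured 27.2, 26.95, 29.2 and 24.8 TPM in control and 25.7, 17.4, 14.9 and 18.6 TPM in Cd mice. Cd mouse 1 lay within the control range and the other Cd mice lay below it (log2 change -0.50, SE 0.16, adjusted p = 0.0281). The interferon-inducible partners Psme1 and Psme2, neighbours on chromosome 14 (55578123 to 55581529 and 55587441 to 55591113), were higher in every Cd mouse than in every control mouse but did not pass the test. Psme1 measured 93.2, 81.7, 92.9 and 94.0 TPM in control and 112, 116, 95.2 and 103 TPM in Cd mice (log2 change 0.23, adjusted p = 0.181). Psme2 measured 87.4, 78.6, 89.9 and 89.2 TPM in control and 102, 101, 99.7 and 97.7 TPM in Cd mice (log2 change 0.21, adjusted p = 0.222). Both passed once the libraries were centred, with 0.45 (adjusted p = 0.00192) and 0.43 (adjusted p = 0.0116). Of the 26 alternative settings described below, Psme1 missed the threshold in 23 and Psme2 in 25.

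Of the remaining genes, the inhibitor Psmf1 (-0.11) and the assembly chaperone Psmd9 (-0.15) did not pass the test. Pomp, which escorts the assembly of the core (chromosome 5, 147860461 to 147876456), measured 168, 125, 142 and 145 TPM in control and 144, 144, 113 and 121 TPM in Cd mice, which overlapped (log2 change -0.15, adjusted p = 0.416). Outside the model, Psma8, an alpha subunit known from testis, was at 0.69 to 0.98 TPM in control and 0.26 to 0.58 TPM in Cd mice. The groups did not overlap, at levels under 1 TPM (exact two-sided permutation test, p = 0.0286, not adjusted and the smallest that 4 against 4 mice allow). Psmb11, known from thymus, was listed at 0 in every control and Cd mouse, and Ifng at 0 to 0.53 and 0 to 0.76 TPM (exact permutation test, p = 0.8). In Cd+Se mice Psma8 was at 0.71 to 1.45 TPM, above every Cd mouse (exact permutation test, p = 0.0286, not adjusted). Ifng was at 0 to 0.06 TPM in Cd+Se mice (exact permutation test against Cd, p = 0.257).

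Counted without a model, 8 of the 42 genes had every Cd mouse above every control mouse (6.44% of all tested genes did) and 8 had every Cd mouse below (27.8% of all). The former were Psma2, Psma4, Psmb3, Psmb5, Psmd4, Sem1, Psme1 and Psme2, and the latter Psmc3, Psmd1, Psmd2, Psmd3, Psmd7, Psmd8, Psmd13 and Psme4. The summed level of the 14 alpha and beta ring genes was 1223 ± 99.5 TPM (SD, n = 4) in control and 1429 ± 158 TPM in Cd mice, and that of the 18 base and lid genes 867 ± 29.1 and 799 ± 94.4 TPM. The ratio of the first sum to the second, which does not depend on the total of a library, was 1.504, 1.33, 1.39 and 1.41 in control and 1.80, 1.78, 1.87 and 1.71 in Cd mice, without overlap. In Cd+Se mice it was 1.54, 1.41, 1.38 and 1.48, and in Se mice 1.44, 1.37, 1.44 and 1.42, below every Cd mouse. Cd+Se mouse 13 lay above the highest control mouse, and the other Cd+Se and Se mice within the range of control. No test is given for these sums, since the genes were grouped with results of these data known. The ratio is not corrected for transcript length. After a correction for length and GC content (below), the median log2 change in Cd moved from 0.31 to 0.18 in the beta ring. In the alpha ring it was 0.28 before and after. It moved from -0.07 to -0.05 in the base ATPases, -0.32 to -0.20 in the other base genes and -0.12 to -0.05 in the lid.

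**Figure D3:**
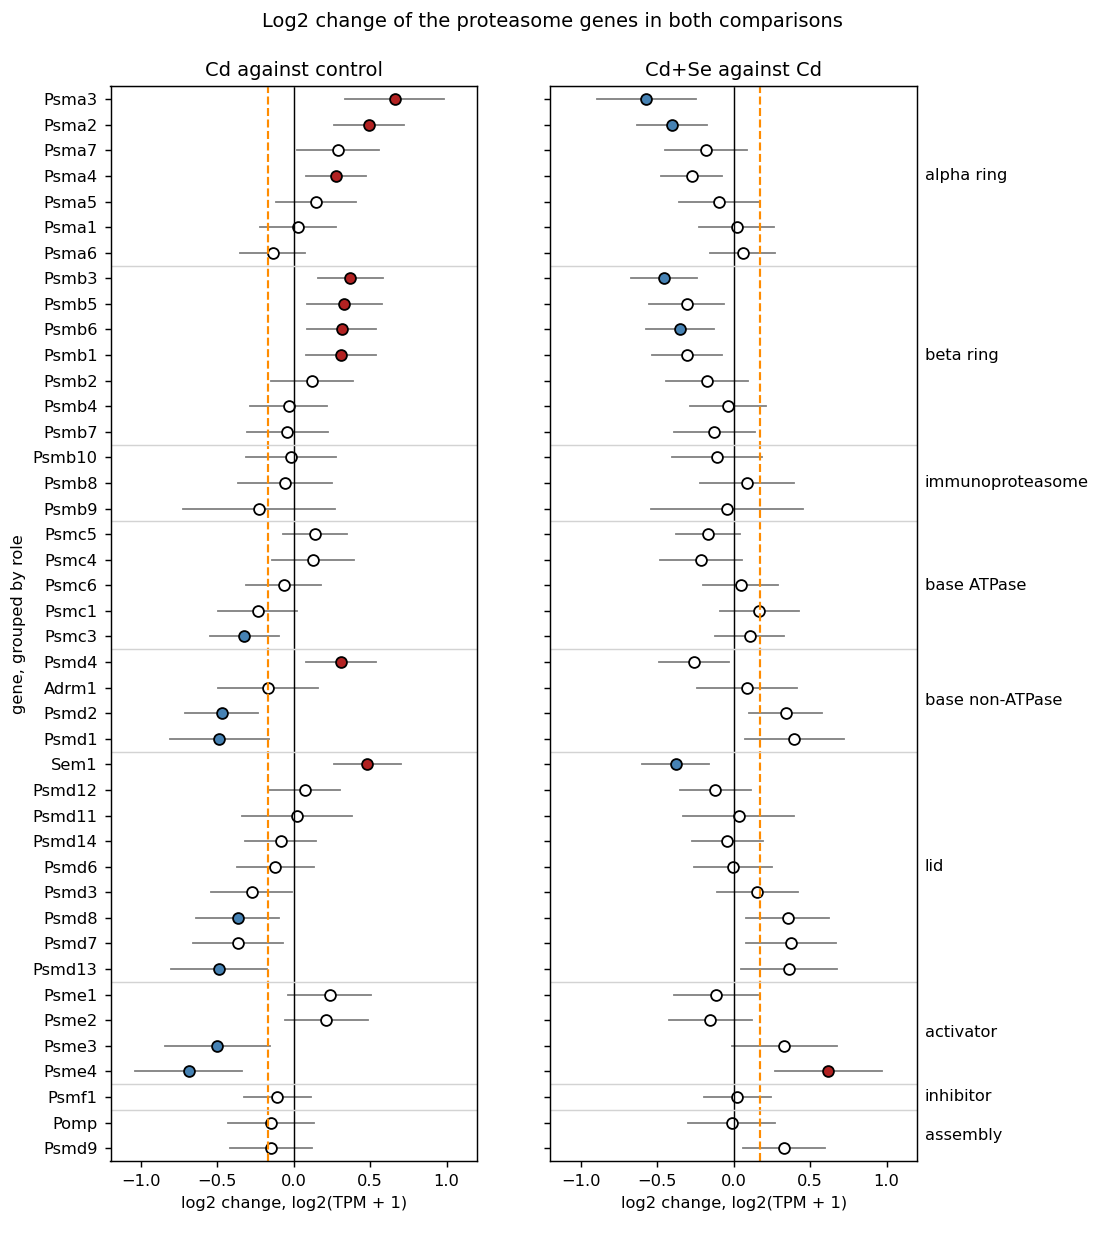
Log2 change with its 95% interval for the 42 tested genes by role, for Cd against control (left) and Cd+Se against Cd (right); filled points passed limma at an adjusted p under 0.05 (red higher, blue lower), open points did not, and the dashed line is the median of all tested genes. The filled points of the left panel lie on the other side of 0 in the right panel, and both panels share the Cd mice.

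The way the libraries were put on a common scale moved these counts. With quantile normalization 14 of the 42 genes were higher and 7 lower in Cd (14.5% and 19.3% of all tested genes), and with library medians set equal (centring) 19 were higher and 2 lower (19.2% and 15.3%). After a correction of each library for transcript length and GC content, 9 were higher and 6 lower (13.6% and 16.6% of 11561 genes). All 9 genes that rose also passed under quantile normalization and centring, and all but Psmb5 and Psmb6 passed with the correction for length and GC content. Of the 7 that fell, Psmd2 and Psme4 passed under all of these scalings; Psmd2 stood at -0.25 (adjusted p = 0.0302) and Psme4 at -0.47 (adjusted p = 0.00824) after centring.

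In a fit of the control and Cd mice alone, 5 genes were higher and 7 lower (6.35% and 24% of all tested genes); Psma4, Psmb1, Psmb6, Psmd4 and Psmc3 were lost (adjusted p 0.0564 to 0.0735) and Psmd7 was gained (0.0486). With no filter on low values, 7 were higher and 4 lower (2.2% and 8.66% of 27943 genes), and Psmb5, Psmd4, Psmd1, Psmd8 and Psme3 were lost (adjusted p 0.0502 to 0.0689).

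Leaving out single mice separated firmer from weaker calls. Psma2, Psma3, Psmb3, Sem1, Psmd2 and Psme4 passed in Cd against control without any of the 16 mice and under each of the 26 alternatives. Without Cd mouse 5, 9 genes were higher and 2 lower (682 and 1996 of all 11766 tested genes). Without control mouse 27 the counts were the same (635 and 2325 of all). Without control mouse 28 or 29, 4 genes were higher and 3 lower (439 and 2297 of all, or 464 and 2124). Without Cd mouse 1 or 2, 4 genes were higher and 7 lower (474 and 3214 of all, or 455 and 2859). With all mice, 685 of all tested genes were higher and 2934 lower, so the calls over all genes moved too. Of the other rises, Psma4 missed the threshold without control mouse 28 or 29 or Cd mouse 1 or 2 (adjusted p up to 0.0952), and Psmb1, Psmb5 and Psmb6 without those or control mouse 30 (up to 0.102, 0.118 and 0.103). Psmd4 missed it without any 1 control mouse or Cd mouse 1 or 2 (up to 0.125). Of the other falls, each was lost without Cd mouse 5 and without control mouse 27, at adjusted p of up to 0.0893 for Psmc3, 0.0779 for Psmd1, 0.119 for Psmd8, 0.0621 for Psmd13 and 0.0911 for Psme3. Psmc3 was also lost without control mouse 29 or Cd mouse 1, Psmd1 without control mouse 28 or 29, Psmd8 without any 1 control mouse or Cd mouse 6, Psmd13 without control mouse 28, and Psme3 without control mouse 28 or 29 or Cd mouse 2 or 6.

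Transcript length moved with these changes. The 9 genes that rose had a median longest transcript of 1472 bases and the 7 that fell one of 2664 bases, against 1561 for all 42 genes and 2821 for all tested genes. Across genes, which are not independent, the rank correlation of the log2 change in Cd with length was -0.48 over the 42 genes and -0.31 over 11561 tested genes. Of the 5 genes under 1000 bases, 3 rose, where 17.8% of all genes of that length did. From 1000 to under 2000 bases, 4 of 25 rose and 3 fell (7.73% and 14.3% of all such genes), and from 2000 to under 4000 bases, 2 of 11 rose and 3 fell (3.94% and 28.1%). Psma3 (2846 bases) and Psma2 (2911 bases) rose in the class of 2000 to under 4000 bases, where the median change was -0.22. Psme4, with 6491 bases, was the longest of the set. These lengths are of the longest annotated transcript, and which transcript the liver expressed is not known here. Whether length had a part in the changes beyond what the correction removes was not tested.

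**Figure D4:**
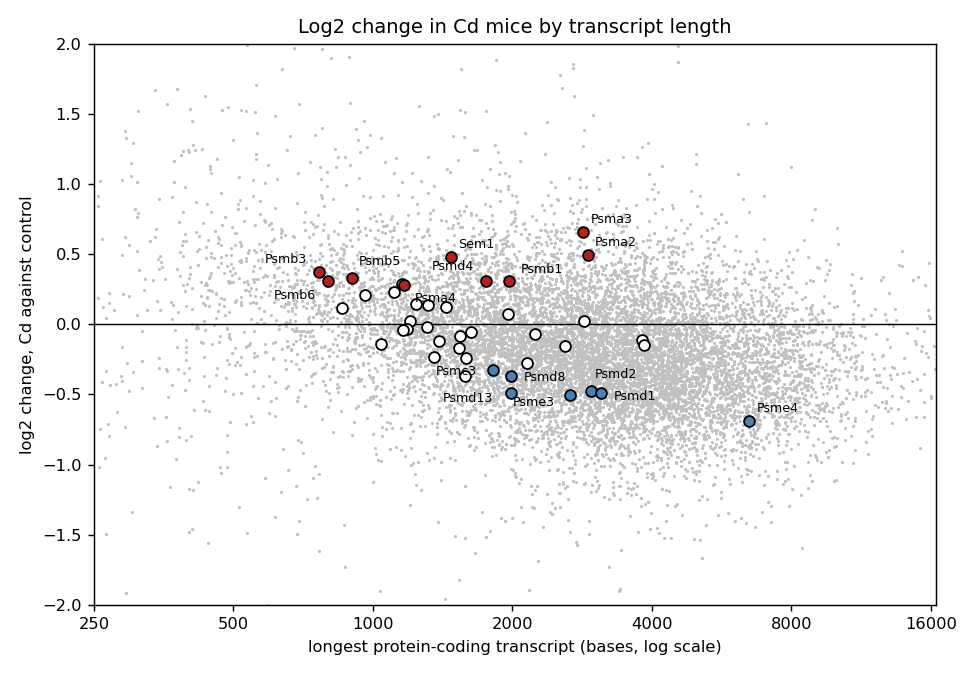
Log2 change in Cd against control (vertical axis) by longest protein-coding transcript (bases, log scale) for other tested genes (grey) and proteasome genes (circles; red passed as higher, blue as lower, white did not pass); a few grey points lie outside the axes. Grey points slope downward to the right. Psma3 (0.66) and Psma2 (0.49) lie above 0 among genes whose longest transcript has 2000 to under 4000 bases (median change -0.22). The longest transcript need not be the one expressed.

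Markers of other cell types moved with Cd too. Of the Kupffer cell and macrophage list, 4 of 5 genes were lower, with a summed 71.4 to 103 TPM in Cd against 127 to 158 TPM in control mice. In the neutrophil list 3 of 3 tested genes were higher, at 31.0 to 39.7 against 5.78 to 15.8 TPM summed, with Retnlg at 0 in 1 library. None of 5 tested leukocyte genes passed (38.3 to 49.7 against 37.4 to 51.7 TPM), and of 3 endothelial genes Stab2 was lower (29.5 to 42.3 against 44.9 to 53.4 TPM). No hepatocyte or tested stellate cell gene passed. The hepatocyte markers summed to 37231 to 63169 TPM in Cd against 56605 to 78896 TPM in control mice. By limma the log2 change was -0.68 for Alb (adjusted p = 0.056), -0.37 for Cyp2e1, 0.09 for Ttr and 0.43 for Apoa1. Of all tested genes, 5.82% were higher and 24.9% lower. The part of these cells in the proteasome values was not tested.

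Cd+Se was then compared with Cd, to ask whether Se altered the levels in Cd-exposed mice. Here 4 of the 14 core genes and Sem1 were lower with Se and Psme4 was higher, and the other 10 core genes did not pass, with log2 changes down to -0.31 for Psmb5 and up to 0.06 for Psma6. Of the 42 genes, 5 (11.9%) were lower (Psma2, Psma3, Psmb3, Psmb6 and Sem1) and 1 (2.38%) was higher (Psme4), where 2.35% of all tested genes were lower and 13.6% higher. The median log2 change was -0.04, against 0.17 for all tested genes, and 16 of the 42 (38.1%) had an unadjusted p under 0.05, beside 33.1% of all tested genes. The Cd mice stand in both comparisons, so opposite changes of a gene are not independent of each other.

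Psmb3 changed most firmly, at 97.4, 108, 111 and 116 TPM in Cd+Se mice 13 to 16, all below the 135 to 169 TPM of the Cd mice (log2 change -0.46, SE 0.10, adjusted p = 0.0118). Psma3 measured 81.7, 73.0, 91.5 and 84.5 TPM in Cd+Se mice, below the 94.1 to 147 TPM of the Cd mice (-0.57, SE 0.15, adjusted p = 0.0222). Psma2 measured 22.7, 27.4, 25.4 and 29.2 TPM, below the lowest Cd mouse at 30.5 TPM (-0.41, SE 0.11, adjusted p = 0.0217). For these 3 core genes the Cd+Se and Cd mice did not overlap. Psmb6 measured 128, 144, 125 and 145 TPM, below the 151 TPM of the lowest Cd mouse (-0.35, SE 0.11, adjusted p = 0.0347). Sem1 was at 20.8, 20.8, 19.4 and 20.4 TPM, below the 24.6 TPM of the lowest Cd mouse (-0.38, SE 0.10, adjusted p = 0.0239). Psme4 was at 16.6, 27.9, 27.3 and 23.5 TPM, where mouse 13 lay within the Cd range of 11.5 to 18.1 TPM and the others above it (0.62, SE 0.17, adjusted p = 0.0224).

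The cutting subunit Psmb5 was at 69.1, 79.4, 80.3 and 86.0 TPM in Cd+Se mice, all below the Cd mice, but did not pass the test (-0.31, adjusted p = 0.0755). Psmb7 measured 89.1, 106, 106 and 101 TPM (-0.13, adjusted p = 0.504) and overlapped with Cd mice. Among the immunoproteasome genes, Psmb8 measured 38.2, 31.2, 21.9 and 35.0 TPM (0.09, adjusted p = 0.716), the widest spread of the 4 groups. Psmb9 at 9.18, 7.57, 3.31 and 6.43 TPM (-0.05, adjusted p = 0.911) and Psmb10 at 22.9, 23.3, 16.3 and 27.3 TPM (-0.11, adjusted p = 0.608) were also lowest in Cd+Se mouse 15. The 3 genes thus shared their lowest Cd+Se value in 1 mouse, and none of them separated the groups. Psme1 measured 107, 96.9, 83.1 and 108 TPM (-0.12, adjusted p = 0.56). Psme2 measured 105, 78.6, 77.4 and 102 TPM (-0.15, adjusted p = 0.427). Both overlapped with the Cd mice, as did Psmd14 at 29.2, 36.2, 33.2 and 30.5 TPM (-0.04, adjusted p = 0.816). Pomp measured 128, 139, 120 and 127 TPM and overlapped as well (-0.01, adjusted p = 0.957).

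Other genes that fell in Cd mice did not pass in this comparison. Psmd1 measured 27.4, 36.8, 39.6 and 31.5 TPM in Cd+Se mice (log2 change against Cd 0.39, adjusted p = 0.0853). Psmd13 measured 29.99, 40.7, 45.7 and 42.3 TPM (0.36, adjusted p = 0.101), and Psme3 17.3, 24.8, 29.7 and 25.2 TPM (0.33, adjusted p = 0.167). In each, Cd+Se mouse 13 was the lowest of its group and lay within the range of the Cd mice. Psmd2 measured 40.3, 52.0, 55.1 and 50.2 TPM, with mouse 13 again the lowest (0.34, adjusted p = 0.0532).

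Without a model, 8 genes had every Cd+Se mouse below every Cd mouse (3.11% of all tested genes) and 3 had every one above (16.1%). The former were Psma2, Psma3, Psma4, Psmb1, Psmb3, Psmb5, Psmb6 and Sem1, all of the core particle except Sem1, and the latter Psmd7, Psmd8 and Psmd9. Under quantile normalization 11 genes were lower and 3 higher (7.72% and 9.94% of all tested genes), with centring 18 and 1 (10.8% and 7.96%), and with the correction for length and GC content 9 and 1 (6.5% and 6.94%). The 5 genes that were lower passed in each of these, and Psme4 did not pass after the length and GC correction (0.32, adjusted p = 0.0718) or with no filter on low values (adjusted p = 0.051). In a fit of the Cd and Cd+Se mice alone, none of the 42 genes passed by limma (14 had an unadjusted p under 0.05), with adjusted p of 0.0729 for Psmb3 to 0.114 for Psmb6, where 0.399% of all tested genes were higher and 0.161% lower. Psmb3 passed without any single mouse, Psma2 was lost without Cd mouse 2 (adjusted p = 0.0505), Psma3 without Cd mouse 2 or 5 or Cd+Se mouse 14 (up to 0.07), and Sem1 without Cd+Se mouse 14 or 15 (up to 0.0559). Psme4 was lost without Cd mouse 5 or Cd+Se mouse 14 or 15 (up to 0.0742), and Psmb6 without any 1 of Cd mice 1, 2 and 5 and Cd+Se mice 13 to 15 (up to 0.0828). The count was 2 without Cd+Se mouse 14, 3 without Cd mouse 2 or Cd+Se mouse 15, and 12 without Se mouse 40, which enters only through the shared spread. Over all 11766 tested genes, 712, 1633, 1299 and 2164 were called in these fits, in that order, against 1876 with all mice.

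Markers of other cell types differed between Cd+Se and Cd mice as well. Leukocyte markers reached a summed 44.4 to 93.5 TPM in Cd+Se mice, with 2 of 5 tested higher than in Cd mice (Laptm5 and Tyrobp). Neutrophil markers summed to 44.1 to 73.4 TPM, above the 31.0 to 39.7 TPM of the Cd mice without overlap, though none of the 3 tested genes passed. Kupffer cell and macrophage markers summed to 116 to 143 TPM, with 2 of 5 higher. Much of that sum was Lyz2, which is also expressed by other myeloid cells, at a mean of 83.9 TPM in Cd+Se and 46.2 TPM in Cd mice (0.83, adjusted p = 0.00972), and Adgre1 was the other (0.78, adjusted p = 0.0259). The other Kupffer cell markers differed in sign and did not pass by limma. Clec4f was at a mean of 14.5 TPM in Cd+Se, 17.1 TPM in Cd and 42.7 TPM in control mice (-0.26 against Cd, adjusted p = 0.539). Marco was at 5.48, 2.76 and 8.66 TPM in the same order (0.75, adjusted p = 0.0777). Cd5l was at 25.5, 19.7 and 38.7 TPM (0.31, adjusted p = 0.523). No hepatocyte, endothelial or tested stellate cell gene passed. Of all tested genes, 13.6% were higher and 2.35% lower. The part of these cells in the proteasome values was not tested.

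The other comparisons gave no call among the 42 genes by limma. Against control, Cd+Se mice gave no call (0.484% of all tested genes did) and none had an unadjusted p under 0.05 (10.9% of all), with log2 changes from -0.28 to 0.18. In Se against control, which asks for an effect of Se alone, none passed (0% of all) and none had an unadjusted p under 0.05 (3.86% of all), with log2 changes from -0.11 to 0.19. Psma3 was at 82.4, 85.0, 72.6 and 82.7 TPM and Psme4 at 24.9, 32.7, 23.0 and 24.5 TPM in Se mice 39, 40, 41 and 44, both overlapping with control. Between Cd+Se and Se none passed (0.714% of all) and 1, the ATPase Psmc3, had an unadjusted p under 0.05, beside 10.9% of all (log2 change -0.39, adjusted p = 0.135). Psmc3 measured 57.4, 56.5, 52.3 and 54.2 TPM in Cd+Se and 66.5, 84.9, 70.9 and 68.8 TPM in Se mice, without overlap, and passed under quantile normalization, centring and the length and GC correction (0.34%, 0.297% and 0.355% of all tested genes were lower).

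The Se mice, in the order 39, 40, 41 and 44, overlapped with the control mice in the core genes. Psma2 measured 23.9, 28.8, 22.6 and 25.6 TPM, and Psmb3 115, 124, 100 and 124 TPM. Psmb5 measured 78.3, 101, 75.0 and 80.5 TPM, Psmb6 134, 156, 127 and 140 TPM and Psmb7 111, 126, 96.5 and 110 TPM. Se mouse 40 was the highest of its group in Psma2, Psmb5, Psmb6 and Psmb7, and it also had the highest library median of the 16 mice, 3.36 on the log2(TPM + 1) scale. Psmb8 measured 28.9, 30.02, 27.7 and 30.1 TPM, Psmb9 10.7, 5.46, 7.34 and 8.21 TPM and Psmb10 21.9, 25.3, 25.5 and 25.9 TPM, overlapping with control. Psme1 measured 85.4, 128, 89.5 and 102 TPM and Psme2 80.7, 119, 87.9 and 92.1 TPM, both highest in mouse 40. Sem1 at 18.8, 18.5, 17.98 and 18.5 TPM, Psmd14 at 34.0, 39.7, 30.7 and 31.8 TPM and Pomp at 153, 170, 143 and 111 TPM overlapped with control.

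The interaction, which asks whether the effect of Cd differed with and without Se, passed for none of the 42 genes (1.04% of all tested genes), with 11 (26.2%) at an unadjusted p under 0.05, beside 21.3% of all. The smallest adjusted p was 0.0993, for Psmb3, whose Cd effect was lower with Se by 0.47 on the log2 scale. For Psma3 the difference was -0.63 (adjusted p = 0.124), for Psma2 -0.44 (adjusted p = 0.124) and for Psme4 0.54 (adjusted p = 0.198). After centring, 11 genes passed with a lower Cd effect under Se (3.54% of all tested genes passed in that direction), Psmb3 with an adjusted p of 0.0103 and Psma2 with 0.0148 among them. In the same direction 4 genes passed with quantile normalization (1.67% of all tested genes did) and 3 with the length and GC correction, taken by the longest or by the median transcript (1.31% and 1.47%).

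Among genes that act with the proteasome (26 of 27 listed were found), 1 was higher and 2 were lower in Cd than in control. Of all tested genes, 5.82% were higher and 24.9% lower. Txnl1, a thioredoxin-like protein bound to the proteasome, rose by 0.55 (adjusted p = 0.0168), from 49.0 to 77.4 TPM in control to 75.4 to 102 TPM in Cd mice. Ube3c, a ubiquitin ligase on the proteasome, was at 8.92 to 10.9 TPM in control and 2.64 to 5.25 TPM in Cd mice, without overlap (log2 change -1.11, adjusted p = 0.000219). Ddi2, the protease that activates NRF1, changed by -0.44 (adjusted p = 0.0369). With Se in Cd-exposed mice Ube3c was higher than without it (0.78, adjusted p = 0.00714), as was Ecpas (0.39, adjusted p = 0.0376), a scaffold that binds the proteasome. In that comparison 13.6% of all tested genes were higher and 2.35% lower. Nfe2l1 was at 24.5 to 29.1 TPM in control and 17.9 to 24.4 TPM in Cd mice (-0.33, adjusted p = 0.089). In Cd+Se mice Nfe2l1 was at 19.9 to 22.5 TPM, without overlap with control. By limma its log2 change was -0.01 against Cd (adjusted p = 0.962) and -0.34 against control (adjusted p = 0.387). Nfe2l2, which encodes NRF2, did not pass in Cd against control (0.29, adjusted p = 0.276). The ubiquitin gene Ubb did not pass (0.47, adjusted p = 0.112).

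Of 11 interferon response genes, listed because interferon induces the immunoproteasome, Isg15 (0.70, adjusted p = 0.0264) and B2m (0.36, adjusted p = 0.0226) rose in Cd and none fell. With Se in Cd-exposed mice, B2m was lower (-0.38, adjusted p = 0.0309) and Irf7 higher (0.40, adjusted p = 0.0293). Of all tested genes, 5.82% rose and 24.9% fell in Cd, and with Se 2.35% were lower and 13.6% higher. No other of these 11 genes passed in these comparisons, and their median log2 change was -0.12 in Cd against control, beside -0.17 for all tested genes.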

How the data were processed

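Liver RNA of 16 mice was sequenced after poly(A) selection. The authors deposited TPM for each gene and mouse; the submitters' notes name fastp, HISAT2 and StringTie without versions, and the human build GRCh38, although the Ensembl identifiers are those of mouse. Strand and the treatment of reads with several matches are not given in the sources used here; the 5 rows of proteasome pseudogenes reached a mean of at most 0.153 TPM. Groups were taken from the titles. log2(TPM + 1) of the 11766 genes averaging 1 TPM or more was fitted in limma 3.58.1 (R 4.3.3), with a mean per group over all mice, an intensity trend and Benjamini-Hochberg adjustment at 0.05. No count test was used. Genes under 1 TPM were compared by exact permutation. The steps were tested on simulated data. Lengths, GC content and gene positions are from GENCODE M21 (GRCm38), found for 98.3% of genes tested. Values by mouse were fixed for Psmb5 to Psmb10, Psme1, Psme2, Psmd14, Pomp and the 4 largest called changes per direction and comparison. The members and lists were chosen with earlier results of these data known, and 3 genes of the lists of related and interferon response genes are not reported here. Alternatives were a pseudocount of 0.1, no filter, a mean of at least 5 TPM, quantile normalization, centring, a loess correction for length and GC (span 0.5), only the groups compared, no trend, protein-coding genes only, each of 16 mice left out and, after seeing the data, lengths from the median transcript.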

Additional observations from a re-analysis of the deposited data

Results flagged for a closer look

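In 7 of the 168 sets of 4 mice looked at (42 genes in 4 groups), 1 mouse stood further from the others than Dixon's 95% limit of 0.829 for the gap as a share of the range; chance gives about 1 in 20, or 8.4. Psma4 (gap 0.844 of the range, 117.69 TPM against 125.63 to 127.1) and Psmb10 (0.845, 21.91 TPM against 25.29 to 25.91) were low in Se mouse 39. Psmb1 (0.908, 76.67 TPM against 61.77 to 63.14), Psmc4 (0.842, 58.93 TPM against 51.1 to 52.34) and Psmd13 (0.853, 44.73 TPM against 38.18 to 39.14) were high in Se mouse 40. Psmd8 was low in Cd mouse 5 (0.893, 42.06 TPM against 55.9 to 57.55), and Psme1 was low in control mouse 28 (0.915, 81.74 TPM against 92.93 to 93.97).

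For Psmb1 every Cd mouse lay above the control mean and every Cd+Se mouse below the Se mean. Se mouse 40 (76.67 TPM) raised that Se mean. Every Cd+Se mouse (64.02 to 65.63 TPM) lay above the other Se mice (61.77 to 63.14 TPM). The Cd effect differed by -0.34 (-0.3405) on the log2 scale, which did not pass limma's interaction test (adjusted p = 0.213).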

How the results depend on the processing

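The 6 genes named as passing without any mouse kept their call in Cd against control under all 26 alternatives. In that comparison 7 to 17 of the 42 genes were called with 1 mouse left out, 12 with only the groups compared and 11 with no filter, and the median log2 change was 0.0918 with quantile normalization and 0.1817 with centring. With 1 mouse left out, 2588 to 3886 of all 11766 tested genes were called. With only the groups compared 3568 of them were, and with no filter 3036 of 27943 genes. In Cd+Se against Cd the count was 14 with quantile normalization, 19 with centring, 0 with only the groups compared, 10 with the length and GC correction, 14 with median transcripts and 2 to 12 with 1 mouse left out, and the median was -0.2352 with centring. The counts over all tested genes were 2078, 2209, 66, 1554 of 11561, 1802 of 11561 and 712 to 2164, in the same order. In Cd+Se against Se 1 gene passed as lower with quantile normalization, centring and either length correction (0.297% to 0.363% of all tested genes did). For the interaction 4 genes passed as lower with quantile normalization (1.67% of all tested genes did), 11 with centring (3.54%) and 3 with either length correction (1.31% and 1.47%), and the median was -0.245 with centring. The cause of these moves was not tested.

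Some uncalled changes turned sign. In Cd against control, with quantile normalization and centring, Psmb7 stood at 0.0135 and 0.1769, Psmb8 at 0.0877 and 0.1651, Psmb10 at 0.1368 and 0.2017 and Psmd14 at 0.0471 and 0.1348. With the length and GC correction Psmb8 stood at 0.0064 and Pomp at 0.1425, and with centring Pomp at 0.0698. With median transcripts Psmb7 stood at 0.0574, Psmb10 at 0.0781, Psmd14 at 0.0528 and Pomp at 0.0023. In Cd+Se against Cd Psmb8 stood at -0.0354 with quantile normalization and -0.1093 with centring. With 1 mouse left out, the log2 change in Cd against control ran from -0.1105 to 0.0491 for Psmb7, -0.1498 to 0.019 for Psmb8 and -0.1178 to 0.0354 for Psmb10. Between Cd+Se and Cd it ran from -0.0137 to 0.2452 for Psmb8, -0.2089 to 0.2044 for Psmb9, -0.2099 to 0.027 for Psmb10, -0.0988 to 0.0018 for Psmd14 and -0.0776 to 0.0372 for Pomp. The replicate numbers differ between the groups. No paired analysis was possible because no 2 groups share a number. TPM hold no depth, so how much of the spread comes from counting is unknown.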
